A study of Mus musculus with 6 samples.

Results

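The growth hormone (GH), STAT5 and IGF1 axis was described in the liver of aged male WT and *Sirt7* KO mice through 10 genes out of 54115 with a transcript in the deposited quantification: *Ghr*, *Jak2*, *Stat5a*, *Stat5b*, *Socs2*, *Cish*, *Igf1*, *Igfals*, *Hsd3b5* and *Elovl3*. They were chosen as named members of the pathway and with their levels in these 6 livers already known, so the difference between genotypes is given for each of them as a description without a test. For every gene, the estimated reads of its transcripts were summed and scaled to the library size. All 10 genes were among the 12524 that passed the filter on low counts. In *Sirt7* KO livers the receptor, its kinase, both STAT5 genes, *Igf1* and *Igfals* had means of 0.985 to 1.29 times those of WT, the feedback genes *Socs2* and *Cish* were lower, and the male-type genes *Hsd3b5* and *Elovl3* were higher.

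The study compared WT mice with mice that lack SIRT7, a NAD+-dependent deacylase of the nucleus, to ask how loss of SIRT7 affects aged animals. RNA was sequenced from 3 WT and 3 *Sirt7* KO livers. All 6 mice were males of 24 months on a C57BL/6J background, were kept on normal chow and had been fasted for 16 h. WT and *Sirt7* KO animals came from crosses of heterozygous parents, the knockout was present in the whole body, and it came from 1 line. That line began on a mixed strain background and was then backcrossed to C57BL/6J. *Stat5a*, *Stat5b*, *Stat3* and *Socs3* lie on the same chromosome as *Sirt7*. Whether sequence of the other strain remained there and had a part in their levels was not tested. No GH was given and no hormone level accompanies these livers here, so each value is the steady level of a transcript in fasted tissue.

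GH from the pituitary binds its receptor on hepatocytes, the receptor activates the kinase JAK2, and JAK2 phosphorylates STAT5A and STAT5B, which then move to the nucleus and bind DNA. STAT5 targets include *Igf1*, the main source of circulating IGF1, its serum carrier *Igfals*, and *Socs2* and *Cish*, whose products dampen the receptor in a negative feedback. In rodents GH is released in pulses in males and more evenly in females, and the pulsed pattern acting through STAT5B gives the liver a male set of genes, of which *Hsd3b5* and *Elovl3* are members.

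**Figure D1:**
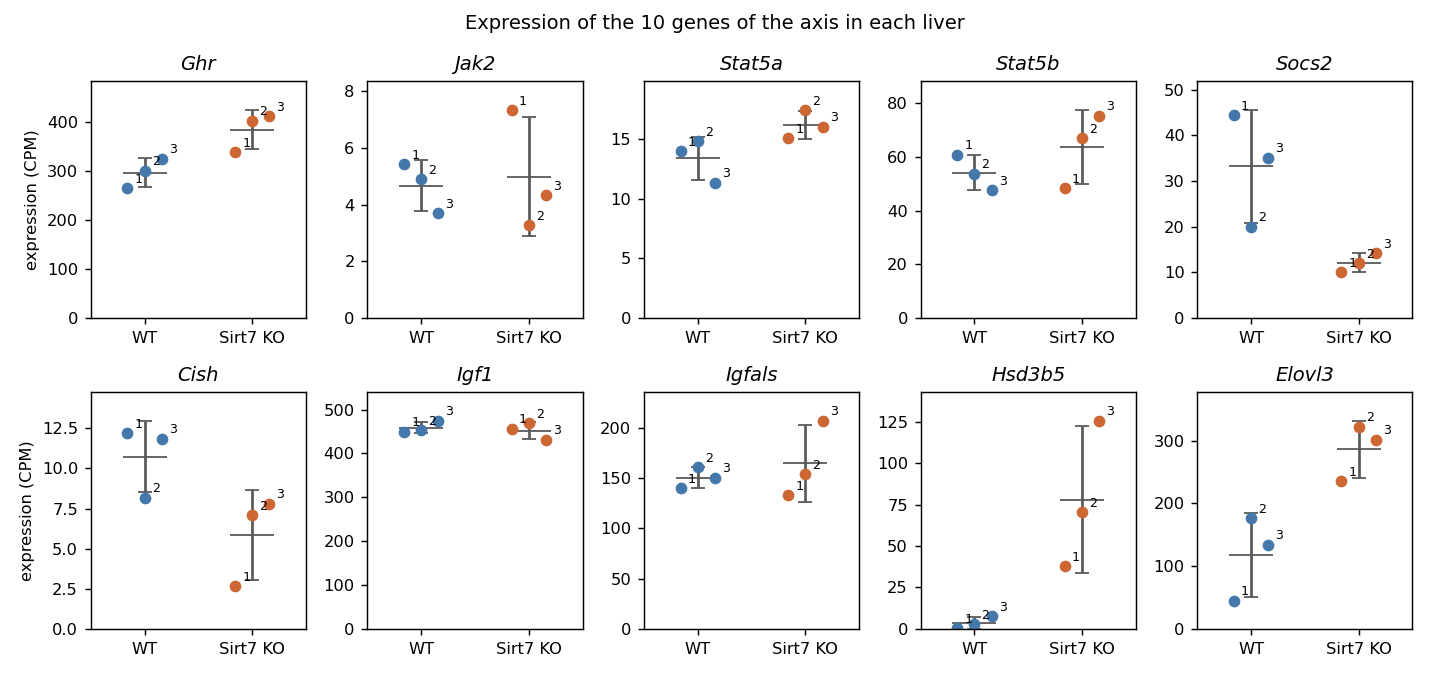
Level of each of the 10 genes, as reads scaled to a common library size (CPM, reads of each gene in 1000000, linear axes from 0), in the 3 WT (blue) and 3 *Sirt7* KO (orange) livers. Numbers beside the points are the replicate numbers, the horizontal line is the mean and the bar its SD; *Socs2* and *Cish* lie lower and *Hsd3b5* and *Elovl3* higher in all 3 *Sirt7* KO livers than in any WT liver.

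The libraries held 9994860 to 13424776 estimated reads, and no pair of livers agreed within sampling noise. *Sirt7* itself lay between 45.5 and 55.2 CPM in WT and between 28.6 and 41.8 CPM in *Sirt7* KO livers. The groups did not overlap in CPM, with a log2 fold change (*Sirt7* KO over WT, as all below) of -0.41 ± 0.18 (SE) by edgeR, a count model fitted over all tested genes. DESeq2, another count model, gave 0.82 with offsets for transcript length. In TPM, a level corrected for transcript length, every *Sirt7* KO liver lay above every WT liver. The values were 34.4, 28.3 and 27.3 TPM in WT and 34.7, 49.9 and 68.0 TPM in *Sirt7* KO livers. The sources used here do not say which part of the gene the line lacks, so these reads check the genotype labels only weakly. By edgeR's quasi-likelihood test, 1 of the 12524 genes was called at an adjusted p under 0.05 with a fold change over 1.5, which is 0.00798%. That gene was *Apol9b*, which was picked out after its value was seen. DESeq2 called 2.16% without and 1.87% with length offsets, and 11.3% of genes had an unadjusted p under 0.05 in edgeR, 6.54% higher and 4.78% lower in *Sirt7* KO. These p-values measure the spread between individual mice, since each library was 1 animal. WT 1 was the lowest of the 6 livers for 2300 and the highest for 2499 of the 12524 genes, beside 1572 to 2282 and 1625 to 2334 for the other livers. It was the lowest for most male-biased genes listed below, and values without it are given beside several results. Markers of hepatocytes such as *Alb* summed to 45630 to 51400 CPM in WT and 48330 to 59980 CPM in *Sirt7* KO livers. None of the 6 hepatocyte, 5 Kupffer cell, 5 endothelial, 6 stellate, 3 tested cholangiocyte and 4 tested lymphocyte markers had an unadjusted p under 0.05. Summed over their lists, Kupffer markers spanned 33.7 to 117.8 CPM in WT and 34.3 to 92.8 CPM in *Sirt7* KO, and lymphocyte markers 20.4 to 38.1 and 13.9 to 40.6 CPM. Of the erythrocyte markers, the haem synthesis gene *Alas2* was higher (log2 fold change 1.26 ± 0.29, unadjusted p = 0.0018) and the 4 globin genes overlapped, with list sums of 373.9 to 546.5 CPM in WT and 445.8 to 915.4 CPM in *Sirt7* KO livers. In bulk RNA, fewer cells of a type and less RNA per cell cannot be told apart, and this holds for every level below.

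STAT5 dimers bind palindromes of the form TTCNNNGAA, which reads the same on both strands. The promoters of the axis were searched for this word in RefSeq windows (GRCm38.p6) from 250 bases before to 50 after each annotated start, because the feedback and carrier genes are STAT5 targets. Of all 32851 such windows, 8.3% held the word, and of 27025 genes 9.55%. Entries were found for 8 of the 10 genes, with 13 windows, and 3 windows of 2 genes, *Cish* and *Igfals*, held it. *Socs2* and *Elovl3* had no entry. The stretches of 30 bases around the words are shown 5′ to 3′ on the + strand, the word in capitals, since they are the matches for a gene that was lower in *Sirt7* KO livers and one that was not.
Cish, chr9:107296654-107296683: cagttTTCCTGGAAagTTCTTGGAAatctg
Igfals, chr17:24877598-24877627: gatctataatTTCTCAGAAaagaggctgag
Igfals, chr17:24878163-24878192: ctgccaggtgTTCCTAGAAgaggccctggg
The *Cish* stretch holds 2 words, beginning at bases 1 and 12 counted from the start site, in an untranslated part of an exon of transcript Cish-201. The *Igfals* words begin at -236 and -58 from different start sites and lie inside the gene but in none of its annotated exons. No word lay in the windows of *Ghr*, *Jak2*, *Stat5a*, *Stat5b*, *Igf1* or *Hsd3b5*. A match in these letters is a description of the window and no measurement of STAT5 binding.

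At the level of the receptor, *Ghr* (ENSMUSG00000055737.12; GRCm38, chr15:3317760-3583492, - strand) was measured at 265, 301 and 326 CPM in WT 1 to 3 and at 339, 403 and 412 CPM in *Sirt7* KO 1 to 3. In CPM every *Sirt7* KO liver exceeded every WT liver, although WT 3 and *Sirt7* KO 1 lay close together, and in TPM they crossed, at 216 and 209. The mean was 297 ± 30.5 CPM in WT and 385 ± 39.9 CPM in *Sirt7* KO (SD, n = 3 each), a log2 fold change of 0.37 ± 0.15, and 0.29 without WT 1. Mouse *Ghr* makes, by alternative splicing, both the membrane receptor and a short soluble binding protein, and the deposited transcripts allow them to be set apart by the length of their coding sequence.

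**Figure D2:**
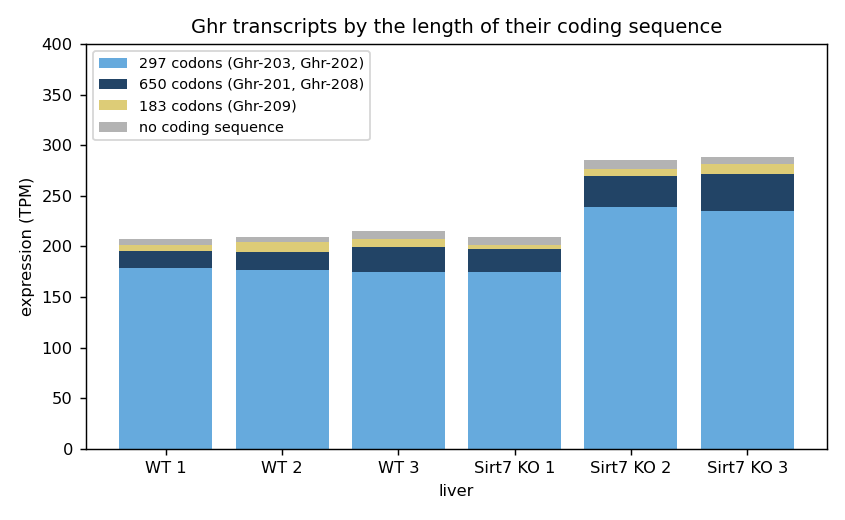
TPM (a level corrected for transcript length and scaled to a fixed total per library) of *Ghr* transcripts in each liver, stacked by coding length on a linear axis from 0. Transcripts of 297 codons, the size of the soluble binding protein, make 80.8% to 86.2% of *Ghr* TPM, and those of 650 codons, the full receptor, 8.28% to 12.7%.

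Transcripts with 297 codons (Ghr-203 and Ghr-202) carried 178, 177 and 174 TPM in WT and 175, 239 and 235 TPM in *Sirt7* KO livers. The 3 WT livers were nearly level, and *Sirt7* KO 1 lay among them while *Sirt7* KO 2 and 3 lay above. Transcripts with 650 codons (Ghr-201 and Ghr-208) carried 17.1, 17.7 and 25.4 TPM in WT and 22.7, 30.5 and 36.7 TPM in *Sirt7* KO livers. Here too WT 3 and *Sirt7* KO 1 overlapped, and the full receptor made 8.28%, 8.42% and 11.8% of *Ghr* TPM in WT against 10.8%, 10.7% and 12.7% in *Sirt7* KO. Salmon, the program the authors quantified reads with, divides them among transcripts by a model, and the reads that span the splice choice were not examined here.

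*Jak2* (ENSMUSG00000024789.13; chr19:29251828-29313080, + strand), the receptor's tyrosine kinase, was the gene with the fewest reads per length. Its CPM was 5.42, 4.90 and 3.70 in WT and 7.33, 3.29 and 4.34 in *Sirt7* KO livers, from 31 to 80 reads. *Sirt7* KO 1 was the highest and *Sirt7* KO 2 the lowest of all 6 livers, so the groups overlapped over their whole range. The log2 fold change of 0.10 ± 0.35 ranged from -0.29 to 0.32 as each liver was left out in turn.

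*Stat5a* (ENSMUSG00000004043.14; chr11:100859351-100885169, + strand) and *Stat5b* (ENSMUSG00000020919.11; chr11:100780731-100850724, - strand) encode the transcription factors of the axis and lie next to each other. *Stat5b*, the main form in hepatocytes, was counted at 60.7, 53.6 and 47.6 CPM in WT and 48.4, 67.0 and 75.2 CPM in *Sirt7* KO. *Sirt7* KO 1 fell inside the WT range and the other 2 above it, for a log2 fold change of 0.23 ± 0.19, which was -0.07 by DESeq2 with length offsets. *Stat5a* was counted at 14.0, 14.8 and 11.3 CPM in WT and 15.0, 17.4 and 16.0 CPM in *Sirt7* KO, with no overlap but with WT 2 and *Sirt7* KO 1 nearly equal. In TPM the groups overlapped, WT 1 being the highest of the 6 livers at 4.96. Its log2 fold change was 0.27 ± 0.18. The pair share sequence, since 15.1% of the 31-base words of *Stat5b* transcripts also occur in *Stat5a*, so some reads could have been assigned to either.

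**Figure D3:**
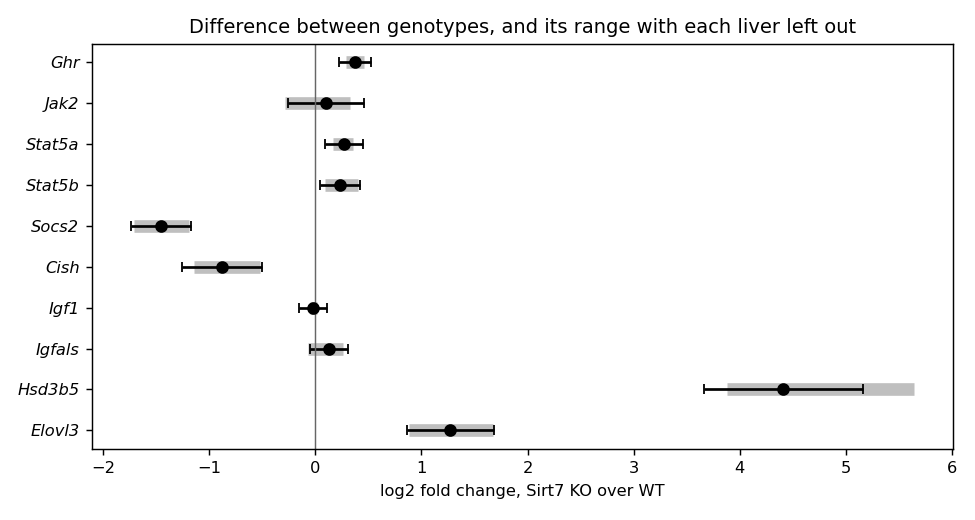
Log2 fold change of *Sirt7* KO over WT for the 10 genes from the edgeR fit over all genes (points, bars are ± 1 SE) and the range of that value when each of the 6 livers is left out in turn (grey). *Socs2* and *Cish* stay below 0 and *Hsd3b5* and *Elovl3* above 0 throughout, while *Igf1* stays between -0.05 and 0.01.

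The feedback genes differed in the direction opposite to that of the receptor. *Socs2* (ENSMUSG00000020027.18; chr10:95385362-95417180, - strand), whose product binds the activated GH receptor and limits its signal, stood at 44.5, 20.1 and 35.1 CPM in WT and at 10.1, 12.1 and 14.3 CPM in *Sirt7* KO livers. In CPM the *Sirt7* KO livers lay below all WT livers, whose own values spread widely and were highest in WT 1. In TPM the groups overlapped, at 42.1, 13.3 and 22.7 in WT and 5.87, 8.31 and 13.8 in *Sirt7* KO, with *Sirt7* KO 3 just above WT 2. The mean was 33.2 ± 12.3 CPM in WT and 12.1 ± 2.09 CPM in *Sirt7* KO (SD, n = 3 each), with a log2 fold change of -1.45 ± 0.28 and of -1.19 without WT 1. The reads behind these values were 221 to 525 in WT and 110 to 148 in *Sirt7* KO livers.

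*Cish* (ENSMUSG00000032578.7; chr9:107296026-107302784, + strand), a related inhibitor that competes for STAT5 docking sites on cytokine receptors, stood at 12.2, 8.17 and 11.8 CPM in WT and 2.66, 7.10 and 7.80 CPM in *Sirt7* KO livers. The groups did not overlap in CPM, but WT 2 and *Sirt7* KO 3 were separated by little and crossed in TPM, at 2.22 and 2.43. *Sirt7* KO 1 was far below the rest, and without it the log2 fold change went from -0.88 ± 0.38 to -0.53. Only 29 to 160 reads stood behind each value, and 10.4% of the *Cish* words occurred in other genes, 6.54% in the annotated gene *Gm17041*.

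Among the secreted products of the axis, *Igf1* (ENSMUSG00000020053.18; chr10:87858265-87937042, + strand) was the most abundant of the 10 genes per length. It measured 450, 454 and 474 CPM in WT and 456, 470 and 431 CPM in *Sirt7* KO livers. *Sirt7* KO 1 and 2 lay within the WT range and *Sirt7* KO 3 below it, and the means of 459 ± 13.4 and 452 ± 19.7 CPM (SD, n = 3 each) gave a log2 fold change of -0.02 ± 0.13. The value moved to -0.13 when scaled to total counts, a scaling that shifts the median of all genes to -0.11, and to 0.05 by DESeq2 with length offsets. Over the 6 livers, the genes whose pattern was most like that of *Igf1* were *Sdhc*, *Fbxw2* and *Ndufb8*. Their root mean square differences were 0.01, 0.03 and 0.03 on the log2 scale, against a median of 0.24 over the 8908 genes compared. As *Igf1* was nearly level, its closest genes are other nearly level genes, and shared control was not tested.

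*Igf1* precursors differ in their leader and in the E peptide at their end, and the deposited transcripts were again grouped by coding length. Those of 137 codons (Igf1-205 and Igf1-204) held 242, 234 and 240 TPM in WT and 213, 235 and 225 TPM in *Sirt7* KO livers, and the transcript of 143 codons held 277, 221 and 208 TPM in WT and 161, 302 and 243 TPM in *Sirt7* KO. Together they made most of the *Igf1* TPM in each of the 6 livers, and they overlapped between genotypes. The transcript of 159 codons (Igf1-203), at 16.4, 12.6 and 16.6 TPM in WT, stood at 26.4, 20.1 and 17.6 TPM in *Sirt7* KO livers without overlap. It was at most 6.26% of the TPM of the gene. Because its values did not overlap, an exact permutation test over the 6 livers could only give p = 0.1, the lowest for 3 against 3. That p therefore adds nothing to the lack of overlap. The other coding lengths of *Igf1* and *Ghr* gave an unadjusted p of 0.2 or more for their TPM. For the share of the 159-codon transcript in the TPM the same test gave 0.2.

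*Igfals* (ENSMUSG00000046070.9; chr17:24865997-24882010, + strand) encodes the acid-labile subunit that holds IGF1 and a binding protein in a long-lived serum complex. It measured 140, 161 and 150 CPM in WT and 133, 154 and 207 CPM in *Sirt7* KO livers. Only *Sirt7* KO 3 left the WT range by much, and the log2 fold change of 0.13 ± 0.18 became -0.07 without that liver. Salmon gave 78.3% to 84.1% of its reads in each liver to a transcript annotated as non-coding, Igfals-204, and the 2625-base coding transcript held 231 to 433 reads.

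The largest difference among the 10 genes was in *Hsd3b5* (ENSMUSG00000038092.6; chr3:98618634-98630252, - strand), a male-type steroid dehydrogenase of mouse liver. It gave 5, 30 and 103 reads in WT and 413, 665 and 1303 reads in *Sirt7* KO livers, which is 0.42, 2.72 and 7.62 CPM against 37.8, 70.5 and 125.5 CPM. Both groups spread over a wide range, yet the lowest *Sirt7* KO liver was well above the highest WT liver. The log2 fold change of 4.41 ± 0.75 was 3.89 without WT 1 and 5.64 without WT 3. Its closest patterns were those of *Serpina1e*, *BC049987* and *Slco1a1*. Their root mean square differences were 1.16, 1.2 and 1.24 on the log2 scale (median of all genes 2.53). They were ranked on these same livers, and shared control was not tested.

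*Hsd3b5* has near copies, and 34.1% of its 31-base words occur in 13 other genes, 25.6% in *Hsd3b4*. Its value could thus include reads of near copies. *Hsd3b1* and *Hsd3b6* had no read in any liver and *Hsd3b4* had 1 read in total, in *Sirt7* KO 3. *Hsd3b3* measured 47.5, 66.6 and 130.7 CPM in WT and 95.9, 191.5 and 238.6 CPM in *Sirt7* KO, overlapping through WT 3 (log2 fold change 1.10 ± 0.41). *Hsd3b2*, at 10.9 to 19.8 CPM in WT and 19.2 to 26.7 CPM in *Sirt7* KO, had a log2 fold change of 0.53 ± 0.25. The unadjusted p in edgeR was 0.025 for *Hsd3b3*, with 0.079 without WT 1, 0.084 without WT 2, 0.058 without *Sirt7* KO 2 and 0.10 without *Sirt7* KO 3. For *Hsd3b2* it was 0.062, with 0.048 without WT 3 and 0.030 without *Sirt7* KO 1.

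*Elovl3* (ENSMUSG00000038754.5; chr19:46131897-46135694, + strand) encodes an elongase of very long chain fatty acids and is male-biased and rhythmic in mouse liver. Its level was 45.1, 176 and 134 CPM in WT and 235, 322 and 301 CPM in *Sirt7* KO livers. All 3 *Sirt7* KO livers lay above WT, and WT 1 lay far below the other 2 WT livers. The log2 fold change was 1.27 ± 0.41, from 0.88 without WT 1 to 1.68 without WT 2.

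In CPM, 6 of the 10 genes did not overlap between genotypes, 4 above (*Ghr*, *Stat5a*, *Hsd3b5* and *Elovl3*) and 2 below (*Socs2* and *Cish*). Among all tested genes, 16.8% did not overlap in CPM, 8.74% above and 8.09% below. In TPM, only *Hsd3b5* and *Elovl3* did not overlap, 2 of 10 beside 15.9% of all tested genes. Ranked by median TPM over the 6 livers, *Igf1* (517) and *Ghr* (213) stood apart from each other and from the next gene. *Elovl3* (109) and *Igfals* (71.9) overlapped, as did *Hsd3b5* (13.7), *Socs2* (13.5) and *Stat5b* (11.9). *Stat5a* (3.55) and *Cish* (2.32) overlapped too, and *Jak2* (0.79) had the lowest median. The order holds for medians, since *Hsd3b5* ran from 0.29 to 80.7 TPM and so covered the ranges of *Socs2*, *Stat5b*, *Stat5a*, *Cish* and *Jak2* and reached into those of *Elovl3* and *Igfals*.

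How a gene's reads divide among its transcripts was not used to choose the genes and was tested for the 9 with at least 2 transcripts of 10 or more reads on average. The share of the leading transcript was compared by a two-sided exact permutation test over the 6 livers, which cannot go below p = 0.1. The smallest p was 0.2, for *Elovl3*, and the adjusted p over the 9 tests was 1.0 for each. Elovl3-201 held 23.4%, 46.0% and 48.4% of *Elovl3* reads in WT and 47.8%, 56.7% and 58.1% in *Sirt7* KO livers, with WT 1 lowest. Igf1-205 held 32.3% to 33.7% of *Igf1* reads in WT and 32.5% to 32.8% in *Sirt7* KO, the narrowest spread of the 9. For *Jak2* and *Stat5a* the leading transcript held all or none of the reads in some livers.

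**Figure D4:**
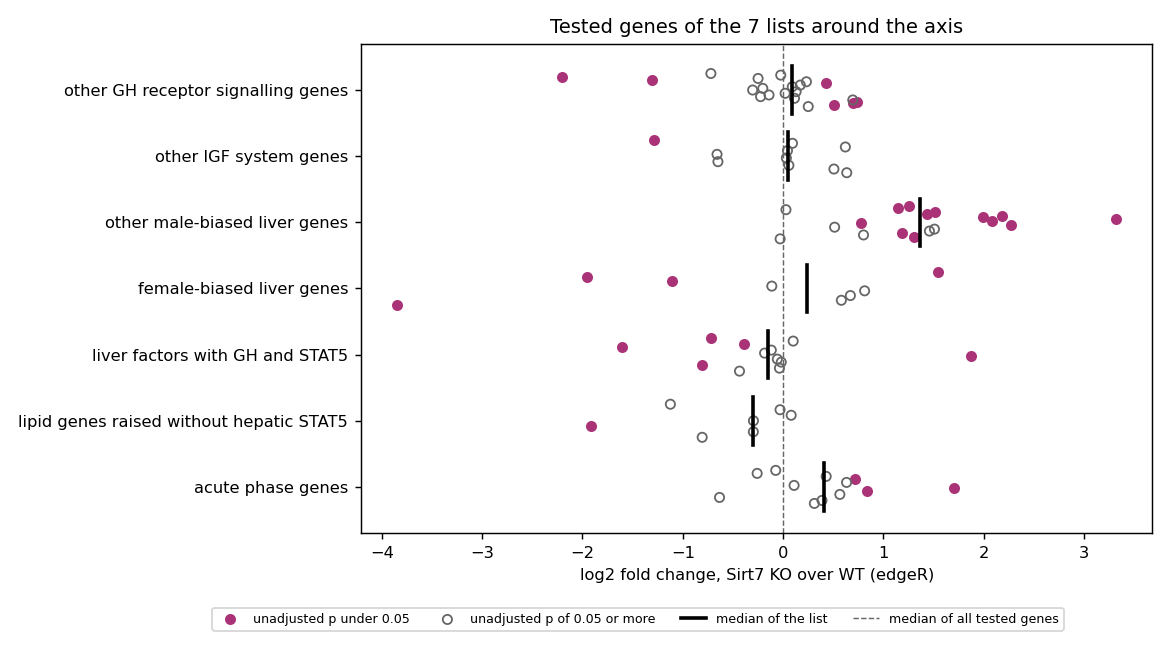
Log2 fold change of *Sirt7* KO over WT (edgeR) for each tested gene of 7 lists of genes around the axis. Filled points have an unadjusted p under 0.05, as had 11.3% of all tested genes. Thick bars are list medians and the dashed line is the median of all tested genes. Of 18 other male-biased genes, 12 are filled and all 12 lie above 0. All lists were chosen with earlier results of these data known.

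Other genes that act around the GH receptor were compared from a list of 22, of which 21 were tested. At an unadjusted p under 0.05, 4 (19.05%) were higher and 2 (9.52%) lower in *Sirt7* KO, beside 6.54% and 4.78% of all tested genes. The median log2 fold change was 0.09, beside -0.01 over all tested genes. That median turned to -0.04 without WT 1 and to -0.01 when scaled to total counts. The balance turned in DESeq2 with length offsets, where 1 was higher and 3 lower at a median of 0.0, while 2 were higher and 2 lower when scaled to total counts or with the replicate number as a block. The transcription factor *Stat3*, which the GH receptor can also activate, measured 143.7, 103 and 89.0 CPM in WT and 183.6, 199.4 and 174.9 CPM in *Sirt7* KO livers without overlap (log2 fold change 0.73 ± 0.19, unadjusted p = 0.0040). The insulin receptor substrate *Irs2* was lower, at 33.4, 27.5 and 16.2 CPM in WT and 15.2, 8.80 and 7.03 CPM in *Sirt7* KO (-1.31 ± 0.34, unadjusted p = 0.0038). The leptin receptor *Lepr* lay at 1.00 to 2.46 CPM in WT and 0.11 to 0.64 CPM in *Sirt7* KO (-2.21 ± 0.73, unadjusted p = 0.014), and its p was 0.080 without WT 1, 0.054 without *Sirt7* KO 2 and 0.058 without *Sirt7* KO 3.

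*Socs3*, a feedback inhibitor shared with the IL-6 receptor, did not follow *Socs2* and *Cish*. It measured 6.27, 4.63 and 2.89 CPM in WT and 8.24, 5.40 and 8.57 CPM in *Sirt7* KO livers (log2 fold change 0.69 ± 0.34, unadjusted p = 0.070), and its p was 0.025 without WT 1 and 0.039 without *Sirt7* KO 2. The prolactin receptor *Prlr* overlapped, at 99.2 to 136.6 CPM in WT and 71.1 to 149.6 CPM in *Sirt7* KO (-0.25 ± 0.28, unadjusted p = 0.39), though without *Sirt7* KO 2 its p was 0.0093. *Fgf21*, a hepatokine known to blunt hepatic STAT5 signaling, was split within the *Sirt7* KO group. It stood at 5.84, 4.08 and 4.22 CPM in WT and at 8.06, 0.11 and 0.29 CPM in *Sirt7* KO livers, with *Sirt7* KO 1 above all WT livers and the other 2 far below. The log2 fold change was -0.72 ± 1.02 (unadjusted p = 0.50), and -4.47 without *Sirt7* KO 1. By qRT-PCR the paper reports significantly higher *Fgf21* mRNA in livers of aged male *Sirt7* KO than WT mice. It also reports higher FGF21 in their serum. The reads of these livers as a group did not show that rise. Whether the qRT-PCR used the same mice is not stated.

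In the IGF system around *Igf1*, 10 of 13 listed genes were tested, 0 were higher and 1 lower at an unadjusted p under 0.05 in edgeR, and the median log2 fold change was 0.05, which turned to -0.06 when scaled to total counts. DESeq2 gave the same counts with and without length offsets. The lower gene was *Htra1*, a protease that can cleave IGF binding proteins, at 3.73, 2.36 and 2.07 CPM in WT and 0.92, 0.85 and 1.54 CPM in *Sirt7* KO (-1.29 ± 0.46, unadjusted p = 0.020). Its p was 0.095 without WT 1, 0.057 without *Sirt7* KO 1 and 0.062 without *Sirt7* KO 2. Of the binding proteins, the abundant *Igfbp2* lay at 660 to 1040 CPM in WT and 697 to 1153 CPM in *Sirt7* KO, a log2 fold change of 0.03 ± 0.24 that turned to -0.09 when scaled to total counts. *Igfbp1*, which rises in fasting, was 81.6 CPM in WT 1, 18.2 and 16.2 CPM in the other WT livers, and 39.7, 26.4 and 7.71 CPM in *Sirt7* KO (-0.65 ± 0.69), and its direction turned to 0.51 without WT 1. *Igfbp3*, the GH-dependent partner of IGF1 and the *Igfals* product in serum, measured 10.9, 12.3 and 10.1 CPM in WT and 10.5, 4.45 and 6.07 CPM in *Sirt7* KO (-0.66 ± 0.31, unadjusted p = 0.062), with an unadjusted p of 0.0022 without *Sirt7* KO 1. The IGF1 receptor gene *Igf1r* is scarce in liver and lay at 0.82 to 2.52 CPM in WT and 2.29 to 2.97 CPM in *Sirt7* KO (0.63 ± 0.46, unadjusted p = 0.20).

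Beside *Hsd3b5* and *Elovl3*, 19 other genes known to be higher in male than in female mouse liver were listed, and 18 were tested. Of these, 12 (66.7%) were higher and 0 lower at an unadjusted p under 0.05 in edgeR, beside 6.54% and 4.78% of all tested genes. The median log2 fold change was 1.37. The list was chosen with earlier results of these data known, so these counts are a description and no separate support. In DESeq2, 13 of 19 were higher without and 14 with length offsets, and 0 lower. WT 1 was the lowest of the 6 livers for 16 of the 18, beside 18.4% of all tested genes. Without WT 1, 15 of 19 were higher at a median of 0.99. Summed over the list, the male-biased genes stood at 3737, 24370 and 30600 CPM in WT and 52200, 39220 and 47660 CPM in *Sirt7* KO livers, so WT 1 was far below the other 2 WT livers and all WT livers were below all *Sirt7* KO livers. The major urinary protein genes *Mup7* and *Mup20*, which were picked out after their values were seen, made 51.9% to 75.4% of that sum. Neither passed the test in edgeR, with an unadjusted p of 0.12 for *Mup7* and 0.41 for *Mup20*, which overlapped between genotypes. Without the pair the sum was 1797, 6389 and 8016 CPM in WT and 12830, 12370 and 14430 CPM in *Sirt7* KO livers.

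The adipokine and serpin gene *Serpina12* measured 10.7, 17.8 and 21.3 CPM in WT and 69.0, 83.3 and 73.3 CPM in *Sirt7* KO livers, a log2 fold change of 2.18 ± 0.24. Its adjusted p was 0.054 in edgeR, and without WT 1 its log2 fold change was 1.94. The organic anion transporter gene *Slco1a1* measured 6.01, 34.5 and 37.1 CPM in WT and 107.7, 82.7 and 138.1 CPM in *Sirt7* KO (2.08 ± 0.54, unadjusted p = 0.0038, and 1.61 without WT 1). In both genes the *Sirt7* KO livers lay above all WT livers, and WT 1 was the lowest. *Selenbp2*, which encodes a selenium-binding protein, spread from 0.34 to 53.4 CPM in WT and from 33.5 to 395.7 CPM in *Sirt7* KO, with overlap (3.32 ± 1.22, unadjusted p = 0.023, and 2.74 without WT 1), and its p was 0.077 without WT 2 and 0.069 without *Sirt7* KO 3. The major urinary protein gene *Mup21* measured 6.86 to 16.2 CPM in WT and 19.1 to 101.3 CPM in *Sirt7* KO (2.27 ± 0.54, unadjusted p = 0.0024). *Serpina1e*, of the alpha-1 antitrypsin family, measured 197, 1908 and 2379 CPM in WT and 5357, 6140 and 6363 CPM in *Sirt7* KO (1.99 ± 0.68, unadjusted p = 0.017, and 1.47 without WT 1). *Selenbp2* shares 59.3%, *Serpina1e* 54.2% and *Mup21* 33.8% of its words with other genes, so their values could include reads of near copies.

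**Figure D5:**
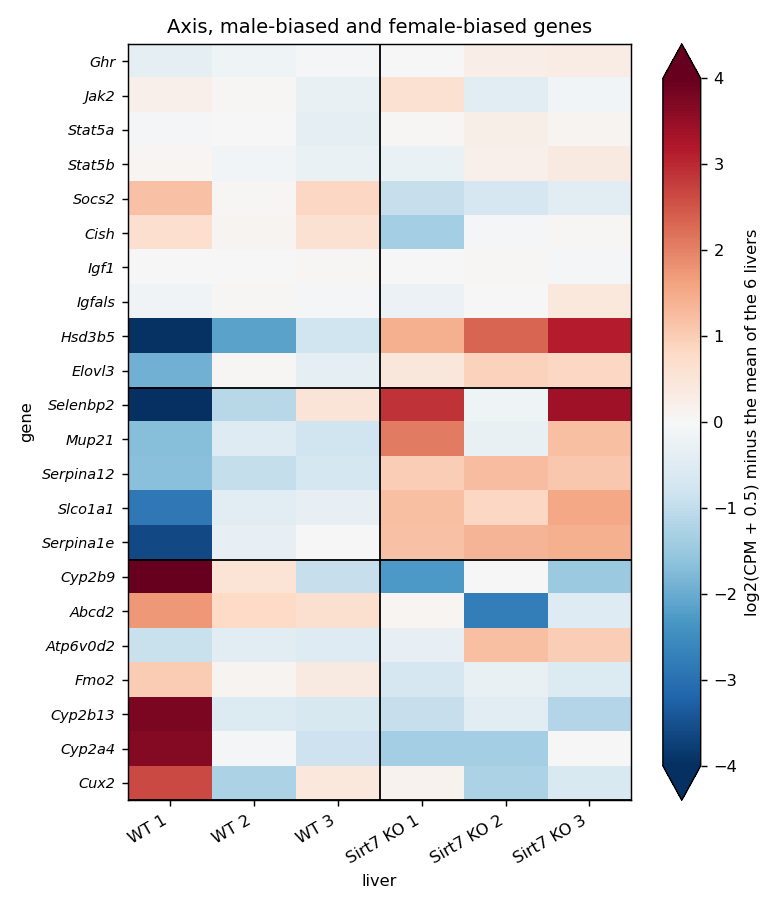
Level of the 10 axis genes, 5 male-biased genes and 7 female-biased genes (blocks from top to bottom) in each liver, as log2(CPM + 0.5) minus the gene's mean over the 6 livers; red is higher and blue lower, and values past 4 take the end color. WT 1 is the lowest liver for *Hsd3b5*, *Elovl3* and the male-biased genes and the highest for *Cyp2b9*, *Cyp2b13*, *Cyp2a4* and *Cux2*. The last 3 were picked out after their values were seen, and 5 of the 8 tested female-biased genes were highest in *Sirt7* KO 2.

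Genes known to be higher in female than in male liver included several that were high in WT 1 alone. Others were highest elsewhere: of the 8 tested out of 20 such genes, 3 were highest in WT 1 and 5 in *Sirt7* KO 2. At an unadjusted p under 0.05, 1 (12.5%) was higher and 3 (37.5%) lower, beside 6.54% and 4.78% of all tested genes. The median log2 fold change was 0.23, which was -0.10 in DESeq2 without length offsets. The cytochrome P450 gene *Cyp2b9* measured 153.6 CPM in WT 1, 12.3 and 4.07 CPM in the other WT livers, and 1.28, 8.05 and 2.60 CPM in *Sirt7* KO. Its log2 fold change of -3.85 ± 1.26 (unadjusted p = 0.014) was -1.05 (unadjusted p = 0.19) without WT 1. *Cyp2b13*, *Cyp2a4* and *Cux2*, which were not tested for low counts and were picked out after their values were seen, stood at 15.0, 15.8 and 7.03 CPM in WT 1 and at no more than 1.11 CPM in any other liver. The peroxisomal transporter gene *Abcd2* was lower in *Sirt7* KO, at 7.03 to 15.3 CPM in WT and 0.21 to 4.58 CPM in *Sirt7* KO (-1.95 ± 0.68, unadjusted p = 0.018, and 0.076 without WT 1). *Fmo2*, a flavin monooxygenase, was lower as well, at 15.1, 7.89 and 9.32 CPM in WT and 4.40, 5.83 and 4.82 CPM in *Sirt7* KO (-1.10 ± 0.29, unadjusted p = 0.0044, and 0.020 without WT 1). *Atp6v0d2*, a proton pump subunit, was higher, at 1.95 to 2.81 CPM in WT and 3.11 to 10.1 CPM in *Sirt7* KO (1.54 ± 0.44, unadjusted p = 0.0067). Without WT 1, 1 gene was higher and 1 lower, and the median was 0.65. With no filter on low counts all 20 genes entered, 3 higher and 8 lower, and the median turned to -1.27.

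Transcription factors that act with or against STAT5B at liver genes were compared from a list of 12, all tested. At an unadjusted p under 0.05, 1 (8.33%) was higher and 4 (33.3%) were lower, beside 6.54% and 4.78% of all tested genes. The median log2 fold change was -0.15. The higher gene was *Bcl6*, a male-biased repressor that GH lowers and that competes with STAT5 at shared sites. It measured 5.93, 9.89 and 3.18 CPM in WT and 34.0, 13.7 and 21.6 CPM in *Sirt7* KO livers without overlap (1.88 ± 0.43, unadjusted p = 0.0019), and 1.83 without WT 1. *Cebpb*, which encodes C/EBP beta, measured 56.9, 68.1 and 28.1 CPM in WT and 34.1, 11.1 and 5.01 CPM in *Sirt7* KO (-1.60 ± 0.59, unadjusted p = 0.025), and its p was 0.055 without WT 1, 0.081 without WT 2 and 0.077 without *Sirt7* KO 2. *Trim24*, a co-repressor, measured 12.7, 12.8 and 18.0 CPM in WT and 9.89, 9.22 and 7.32 CPM in *Sirt7* KO (-0.72 ± 0.22, unadjusted p = 0.011, and 0.052 without WT 3). *Onecut1*, which encodes HNF6, measured 5.17 to 8.29 CPM in WT and 3.29 to 4.30 CPM in *Sirt7* KO (-0.81 ± 0.29, unadjusted p = 0.022), with an unadjusted p of 0.11 without WT 3, 0.062 without *Sirt7* KO 2 and 0.056 without *Sirt7* KO 3. It shares 52.5% of its words with the annotated gene *Gm20649*. The summed level of the list was 655 to 775 CPM in WT and 510 to 577 CPM in *Sirt7* KO livers, without overlap, and *Hnf4a* and *Rxra*, the most abundant of the 12, made 52.1% to 63.1% of it.

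Lipid uptake and storage genes that are known to rise when hepatic STAT5 is lost were compared from a list of 7, all tested. None was higher and 1 was lower at an unadjusted p under 0.05 in edgeR, as in DESeq2 without length offsets, and 2 were lower in DESeq2 with them. The edgeR count is 14.3% of the list, near the 11.3% of all tested genes. The median log2 fold change was -0.30. The lower gene was the lipoprotein receptor *Vldlr*, at 6.18, 1.91 and 1.55 CPM in WT and 1.19, 0.95 and 0.39 CPM in *Sirt7* KO livers (-1.91 ± 0.67, unadjusted p = 0.019). WT 1 was far above the other livers, and the p was 0.15 without WT 1 and 0.061 without *Sirt7* KO 3.

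Acute phase genes were listed because inflammation is known to blunt GH signaling in liver. All 12, which include cytokine receptor genes, were tested. At an unadjusted p under 0.05 in edgeR, 3 (25.0%) were higher and 0 lower, beside 6.54% and 4.78% of all tested genes. The median log2 fold change was 0.41. DESeq2 gave 5 higher without and 4 with length offsets, of 11 tested, and 0 lower. The orosomucoid genes *Orm1* and *Orm2* were higher in every *Sirt7* KO liver. *Orm1* measured 721, 509 and 538 CPM in WT and 1035, 1041 and 1084 CPM in *Sirt7* KO (0.84 ± 0.17, unadjusted p = 0.00098), and *Orm2* 31.7, 11.7 and 16.9 CPM in WT and 88.4, 46.6 and 60.6 CPM in *Sirt7* KO (1.70 ± 0.36, unadjusted p = 0.0012, and 2.18 without WT 1). They share 27.5% of their words with each other. The fibrinogen gene *Fgg* overlapped through WT 1, at 1991 to 4274 CPM in WT and 4249 to 5252 CPM in *Sirt7* KO (0.71 ± 0.28, unadjusted p = 0.030). Without WT 1 its log2 fold change was 1.08 (unadjusted p = 0.00056), and its p was 0.094 without WT 2, 0.098 without WT 3, 0.057 without *Sirt7* KO 1 and 0.064 without *Sirt7* KO 2. *Saa1*, an acute phase apolipoprotein picked out after its values were seen, stood at 631 CPM in WT 1, at 26.5 and 67.1 CPM in the other WT livers and at 216 to 466 CPM in *Sirt7* KO. Without WT 1, 8 of the 12 genes were higher at an unadjusted p under 0.05. Whether the acute phase genes or the values of WT 1 had a part in the levels of *Socs2*, *Cish*, *Hsd3b5* or *Elovl3* was not tested.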

How the data were processed

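The authors sequenced liver RNA as single-end reads from a kit that does not mark strand, trimmed adaptors with Trim Galore 0.6.5 and quantified the reads against the mouse transcriptome of GRCm38 with Salmon 1.2.1. The deposited values are an estimated count per transcript and mouse, which the authors did not normalize, and TPM, which their Salmon run scaled to effective transcript length. The annotation release is not given in the sources used here. Here estimated counts were added up per gene with the GENCODE M21 annotation and rounded, and 1201 of 140992 transcripts without a gene there (0.303% to 0.492% of reads) were left out.

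Genes were tested with edgeR 4.0.16 in R 4.3.3 (quasi-likelihood test, TMM, filterByExpr with a minimum count of 10, Benjamini-Hochberg adjustment). CPM uses TMM library sizes. Fold changes are log2 of *Sirt7* KO over WT with their SE. That SE was taken as the size of the log2 fold change over the square root of the quasi-likelihood F statistic. DESeq2 1.42.0 and the settings described in the closing section were alternatives, and the edgeR step was checked on simulated counts. The depth of 9994860 to 13424776 reads leaves genes of few reads imprecise, and no molecular identifiers are named, so depth covers counting error only. Shared sequence was counted as words of 31 bases with Python 3.11.15.

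The 10 genes and the gene lists were chosen with earlier results of these data known. Named besides them are *Sirt7*, genes of each list with an unadjusted p under 0.05 among its 5 largest changes, *Fgf21*, *Igfbp1*, *Igfbp2*, *Igfbp3*, *Igf1r*, *Prlr*, *Bcl6*, *Socs3*, the *Hsd3b* paralogs and, for *Igf1* and *Hsd3b5*, the 3 genes of most similar pattern with a mean of at least 50 reads. Other names are said to be picked after their values were seen. Some genes that the rule names are not reported here.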

Additional observations from a re-analysis of the deposited data

How the results depend on the processing

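With 3 mice per group and a biological coefficient of variation of 26.4%, the count of called genes was unstable. It was 1 in the edgeR fit and 2 with total counts, 633 with no filter on low counts, 258 and 242 by DESeq2 without and with length offsets and 41 with the replicate block, and it ranged from 0 to 252 when each liver was left out, with 252 without *Sirt7* KO 1. Scaling to total counts moved the median of all genes to -0.11, and the other alternatives moved it by less. The causes of these changes were not tested. Deviations from the group means correlated at 0.065, 0.08 and -0.044 between mice of the same number. Between mice of different numbers they correlated at -0.103 to 0.049. With 3 mice per group these values cannot settle whether the replicate numbers pair the mice. The labels give only the number, so what the replicate block stands for is not known. For the 10 genes of the axis, 127 of 130 alternative log2 fold changes stayed within the spread between replicates of the reported value. The exceptions were *Stat5b* at -0.069 by DESeq2 with length offsets and *Igf1* at -0.13 with total counts and 0.053 by DESeq2 with length offsets. Each gene was held to its own spread, so a gene that varied widely between replicates, such as *Hsd3b5*, could move further and stay within it. The *Hsd3b5* value ranged from 3.88 to 5.64, *Elovl3* from 0.88 to 1.68, *Socs2* from -1.71 to -1.19 and *Cish* from -1.15 to -0.53 over all 13 alternatives, so none of these 4 changed direction.

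Counts of listed genes at an unadjusted p under 0.05 moved by more than 1.5 times in 21 of 91 alternatives. IGF system genes numbered 2 with total counts, 3 with no filter, 0 with a mean of at least 50 reads, 2 with the replicate block and 0 to 1 with a liver left out. Lipid genes numbered 3 with no filter, 0 with a mean of at least 50 reads, 2 by DESeq2 with length offsets, 2 with the replicate block and 0 to 3 with a liver left out. Female-biased genes numbered 11 with no filter and 2 to 5 with a liver left out. Acute phase genes numbered 8 with no filter, 5 by DESeq2 without length offsets, 5 with the replicate block and 2 to 8 with a liver left out. Leaving out a liver gave 3 to 6 GH receptor signaling genes, 3 to 6 liver factors and 11 to 15 male-biased genes, and over all 13 alternatives the male-biased count was 11 to 17 with 0 lower in each.

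Among single genes, *Irs2*, *Stat3*, *Mup21*, *Serpina12*, *Slco1a1*, *Serpina1e*, *Atp6v0d2*, *Fmo2*, *Bcl6*, *Orm1* and *Orm2* had an unadjusted p under 0.05 in each alternative that was run. These genes were named with results of these livers known, and the alternatives reuse the same livers, so this is no separate test of them. Direction turned for *Sirt7* (0.82 by DESeq2 with length offsets), for *Igfbp2* (-0.094 with total counts, and -0.20 to 0.18 with a liver left out) and for *Igfbp1* (-1.18 to 0.51 with a liver left out). The share of the leading transcript, *Sirt7* KO minus WT in percentage points, changed sign with a liver left out for *Stat5a* (-4.61 to 40.8), *Socs2* (-6.59 to 5.12), *Cish* (-24.0 to 11.6), *Igf1* (-0.386 to 0.338) and *Igfals* (-2.12 to 0.60). For *Igfals* it was also 0.0756 as a share of TPM and 1.81 as a share of protein coding transcripts. No alternative brought the number of mice above 3 per group, and a two-sided permutation test of that size cannot go below p = 0.1.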
